A study of Danio rerio with 27 samples.

Results

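The response of zebrafish hepatocytes (HEPs) to thioacetamide (TAA) was measured by RNA-seq in 6 of the 27 libraries of the series, and all 18336 genes of the table were compared. The 6 libraries were chosen by their labels alone. All came from adult females of the line Tg(fabp10a:dsRed) in the AB wild-type background, in which the fabp10a promoter drives dsRed in HEPs, and each held 100000 dsRed-positive cells sorted from the liver. The 3 TAA libraries came from fish injected into the peritoneum with 500 mg/kg TAA, and the 3 control libraries from fish injected with sterile water, 6 times over 2 weeks in both groups. The methods name sterile water for the control, while elsewhere the control is called saline. Whether each library came from a separate fish or from a pool is not given in the sources used here. The p-values thus measure the spread between libraries, which may not be that between fish. The methods count fewer control-injected fish in all than there are reporter-positive control libraries over the lines, so control libraries may share fish. The rest of the series holds the dsRed-negative cells of control fish, in 3 libraries, and the corresponding libraries of the lines Tg(hand2:EGFP) for hepatic stellate cells (HSCs) and Tg(kdrl:ras-mCherry) for endothelial cells (ECs).

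HEPs are the main cells of the liver, where they make plasma proteins and lipoproteins, handle lipids, glucose and amino acids, and clear foreign compounds. TAA is a hepatotoxin that cytochromes P450 and other oxygenases convert, inside these cells, into reactive products that bind proteins and lipids. In female fish HEPs also make vitellogenin, the yolk precursor, in response to oestrogen. Endoplasmic reticulum (ER) stress, in which unfolded proteins switch on chaperones and the transcription factors ATF4, ATF3 and CHOP (DDIT3), is a common companion of toxic injury to HEPs in mammals.

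The values are rlog values, a log2 scale on which a library's counts are divided by a size factor and the deviations of genes with few counts are drawn towards the mean of the gene. A value near or below 0 stands for a gene with almost no reads, and differences of such genes are understated. Because no gene length enters, levels are compared here only within a gene, except for the vitellogenins. Their share of the summed level is not a share of transcripts. A change is the mean of the 3 TAA libraries minus that of the 3 control libraries, with its standard error (SE) from limma. The fit took in all 18 reporter-positive libraries, so the spread of the HSC and EC libraries enters the SE and the p-values. For a single gene the SE can thus be wider or narrower than the HEP values printed beside it. A change was called at an adjusted p-value under 0.05, where the adjustment was that of Benjamini and Hochberg across the 18336 genes. Names in capitals are those of the reference table, which can give several zebrafish copies of a gene the same name, and where that happens the identifier follows.

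The 25 HEP markers, among them fabp10a, transferrin and apolipoproteins, stood at a mean rlog value of 11.67, 11.35 and 11.25 in the control libraries and 11.62, 11.55 and 11.83 in the TAA libraries, so the defining markers of the labelled cell type were present in all 6. They were as high in the dsRed-negative control libraries, at 11.26 to 11.33. Between dsRed-positive and dsRed-negative control libraries 98 genes differed, 0.534% of all genes, 1 higher in dsRed-positive cells (0.00545%) and 97 lower (0.529%). With the replicate number as a block, since same-numbered libraries of this comparison deviated together, 26 genes differed, all of them lower. Without any 1 of these 6 libraries and with no block the count was between 0 and 33. With all libraries kept it was 109 with no variance trend and 6 with a mean value of at least 3. The 98 genes come from a fit of all 18 control libraries, whose spread enters the SE. Among the reporter-negative HSC control libraries, the HEP markers stood at 6.04 in replicate 3, against 11.63 and 11.52 in replicates 1 and 2. A fit of only the 6 compared libraries was not run, so the small count does not show that the sorted fractions were alike. The endothelial list stood at 2.44 to 2.87 in dsRed-positive and 5.57 to 5.73 in dsRed-negative control libraries. For the erythrocyte list these ranges were 0.43 to 1.23 and 3.63 to 5.37. The library medians lay between 3.49 and 3.75 in the dsRed-positive groups of HEPs. The TAA libraries differed less from each other, by a median of 0.287 to 0.321 per gene, than the control libraries did, by 0.379 to 0.521.

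After TAA the expression of 1357 genes in HEPs had changed, which is 7.4% of all genes. The median change over all genes was -0.02. Of the called genes, 391 (2.13%) rose and 966 (5.27%) fell, so falls made up most of the calls. The falls were also larger, with a median size of 1.75 on the log2 scale against 1.32 for the rises, and 343 genes fell by at least 2 on this scale while 51 rose by as much. In 1325 of the 1357 genes the values of the TAA and control libraries did not overlap. Over all genes, 12.8% had TAA values wholly above and 17.9% wholly below the control values. With libraries centred on their median 444 genes rose and 931 fell, and with quantile normalization 551 rose and 881 fell. With only the 6 HEP libraries in the fit, 265 genes rose and 748 fell. That fit kept 800 of the 1357 calls. Leaving out TAA replicate 1, 2 or 3 took the count to 770, 850 or 782, with 190, 179 or 203 rises and 580, 671 or 579 falls. Counts of list members are to be read against the shares of all genes, 2.13% for rises and 5.27% for falls. The lists and their members were chosen with earlier results of these data known, so these counts are a description.

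The gene with the largest rise was rnasel2, a ribonuclease, with values of 3.44, 2.07 and 1.53 in the control libraries and 5.96, 7.81 and 7.85 in the TAA libraries. This was a change of 4.86 ± 0.64 (SE, adjusted p = 0.000152). ELOVL6, which elongates saturated fatty acids, was near the floor in all control libraries and at very different levels in the TAA libraries, with values of 0.12, -0.07 and -0.03 in the control libraries and 6.83, 1.94 and 4.004 in the TAA libraries. TAA minus control was 4.25 ± 0.77 (SE, adjusted p = 0.00213). The same was seen for acot12, a thioesterase that releases acetate from acetyl-CoA, with -0.09, -0.27 and -0.24 in the control libraries and 4.62, 2.55 and 4.03 in the TAA libraries. The group means differed by 3.94 ± 0.59 (SE, adjusted p = 0.000412). The UDP-glucuronosyltransferase gene ugt5b5 had values of 2.998, 1.51 and 1.57 in the control libraries and 6.63, 6.39 and 5.18 in the TAA libraries. Its change was 4.04 ± 0.68 (SE, adjusted p = 0.0013). FABP2, a fatty acid carrier best known from the intestine, and FAT3, a giant cadherin, rose by 3.59 and 4.13. The other 6 of the 12 largest rises were genes with clone-based names and no described role. They were si:ch73-366i20.1 (3.97), si:ch73-313h21.1 (3.92), si:dkey-97i18.6 (3.58), si:ch211-274k16.9 (3.3999), si:dkey-94e7.2 (3.398) and si:dkey-27n6.10 (2.83). The call of ELOVL6 was lost in the fit of the 6 HEP libraries (adjusted p = 0.0528). That of si:dkey-97i18.6 was lost without TAA replicate 1 or 2 or control replicate 2 (adjusted p = 0.0532 to 0.066). For si:dkey-94e7.2 this happened in the fit of the 6 HEP libraries (adjusted p = 0.0997).

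At the other end stood loxl2a, whose product cross-links collagen and elastin. It had values of 8.54, 7.67 and 8.06 in the control libraries and 3.49, 2.79 and 2.68 in the TAA libraries. The fitted change was -5.11 ± 0.61 (SE, adjusted p = 6.76e-05). On the rlog scale this is 34.5-fold lower. Then came hmgcra, the rate-limiting enzyme of cholesterol synthesis, with 6.14, 4.15 and 7.23 in the control libraries and 1.52, 0.87 and 0.90 in the TAA libraries. That is a change of -4.75 ± 1.07 (SE, adjusted p = 0.00965). The control libraries of hmgcra spread over 3 log2 units. They lay above all TAA libraries, but the rule for naming the 12 largest falls required this of each gene. The helicase gene ddx43 (-4.23 ± 0.74 (SE, adjusted p = 0.00172)) and rtn4rl2a, a relative of the Nogo receptor (-3.99 ± 0.54 (SE, adjusted p = 0.000207)), were also close to the floor after TAA. Among the 12 largest falls were also digestive enzymes of the pancreas, ctrb.3, ela2l, CPB1 and CPA1 (ENSDARG00000021339), which are described with the pancreas markers. The others were actl6b, a subunit of a neuronal chromatin remodelling complex (-3.79 ± 0.90 (SE, adjusted p = 0.0132)), wu:fi42e03 (-3.91 ± 0.63 (SE, adjusted p = 0.000883)), and the non-coding RNAs U3 (-3.74 ± 0.37 (SE, adjusted p = 1.95e-05)) and Metazoa_SRP (ENSDARG00000112225) (-4.16 ± 1.0002 (SE, adjusted p = 0.0142)). The values of actl6b were 6.37, 3.72 and 0.21 in the control libraries and -0.04, -0.36 and -0.68 in the TAA libraries. Control replicate 3 was thus near the floor. For wu:fi42e03 they were 1.94, 0.76 and 5.11 in the control libraries and -1.36, -1.19 and -1.37 in the TAA libraries. The control libraries of both genes spread widely, which their SE does not show. The call of hmgcra was lost without control replicate 3 (adjusted p = 0.0508). That of Metazoa_SRP (ENSDARG00000112225) was lost without TAA replicate 3 or control replicate 3 (adjusted p = 0.0571 to 0.0738). For actl6b this happened without TAA replicate 3, and in the fit of the 6 HEP libraries (adjusted p = 0.0525 to 0.121).

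**Figure D1:**
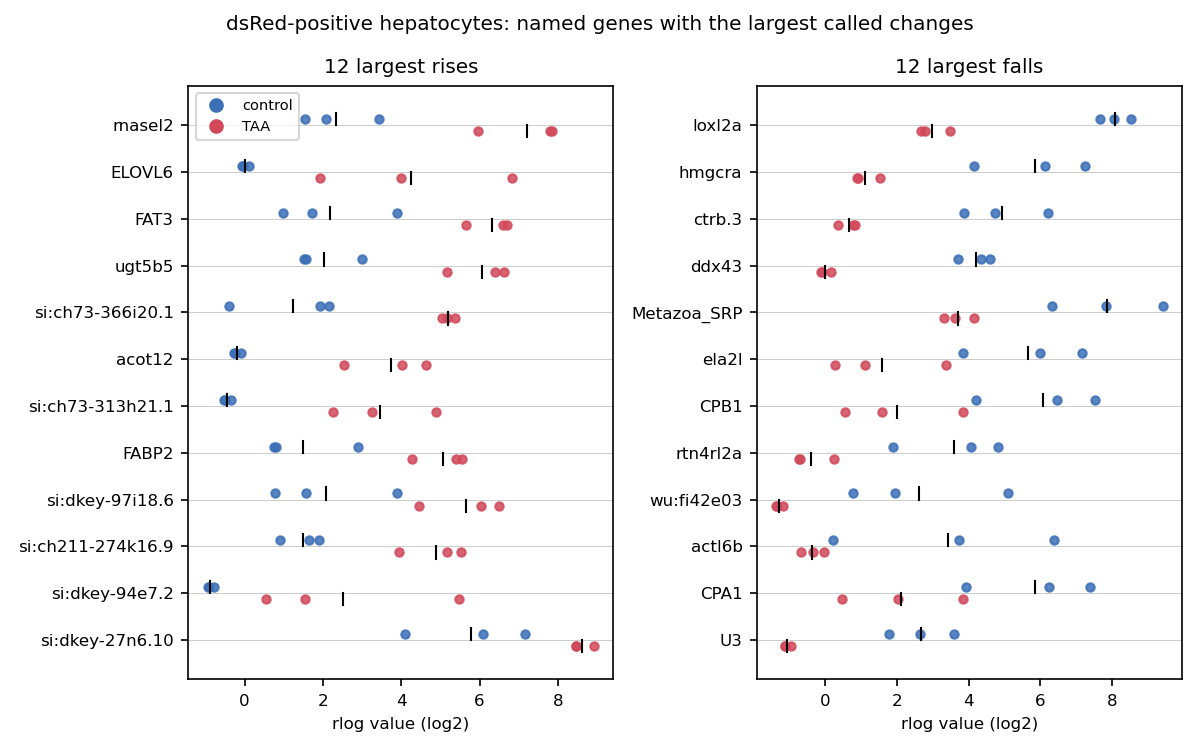
rlog values (log2, x axis) of the 12 named genes with the largest called rises (left) and falls (right) in dsRed-positive HEPs, 1 point per library with control in blue, TAA in red and black ticks for the group means. The genes were chosen among those whose TAA and control points do not overlap, and several of the rising genes are near or below 0 in every control library.

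In cholesterol synthesis and uptake, 0 rose and 2 fell of 27 measured members, with a median change of -0.48. The falls were 7.41% of the list, near the 5.27% of all genes, and 22 of the members had a negative change. Besides hmgcra, the call was made for ldlra, the receptor that takes up low-density lipoprotein, with values of 11.99, 11.42 and 11.06 in the control libraries and 8.86, 8.48 and 9.17 in the TAA libraries. The means differed by -2.66 ± 0.30 (SE, adjusted p = 4e-05). The groups were far apart. In fatty acid and triglyceride synthesis, 3 rose and 5 fell of 25 measured members, with a median change of -0.04. Rises were 12% and falls 20% of the list. The elongase genes in that list did not move together. While ELOVL6 rose, elovl2, which lengthens polyunsaturated fatty acids, had 7.58, 7.52 and 7.66 in the control libraries and 5.04, 4.80 and 4.46 in the TAA libraries. The measured change was -2.82 ± 0.44 (SE, adjusted p = 0.000727). elovl1a, which acts on very long chains, changed by -2.56 ± 0.58 (SE, adjusted p = 0.0095). The Mid1-interacting protein mid1ip1b, an activator of acetyl-CoA carboxylase, fell by 1.98 on the log2 scale (adjusted p = 0.0185). The other called members were outside the naming rule and are named after their values were seen. On the lower side were ACACA (-1.26), which encodes acetyl-CoA carboxylase, and PLIN2 (-1.85), which coats lipid droplets. On the higher side were dgat1a (1.87), an enzyme of triglyceride synthesis, and mlxipl (1.78), the glucose-sensing factor ChREBP. For fasn, fatty acid synthase, the values were 8.63, 8.47 and 8.11 in the control libraries and 7.30, 7.58 and 7.52 in the TAA libraries. On the log2 scale the change was -0.93 ± 0.31 (SE, adjusted p = 0.0723). The groups did not overlap, but the change did not pass, except in 1 alternative limma fit (adjusted p = 0.0238). In the fatty acid synthesis list 1 rise was left without TAA replicate 2, and 2 falls without TAA replicate 3 or 3 without control replicate 1. For cholesterol genes the falls were 4 in the fit of the 6 HEP libraries and 1 without control replicate 3. The call of elovl1a was lost without TAA replicate 3 (adjusted p = 0.0598). That of mid1ip1b was lost without TAA replicate 2 or 3 or control replicate 1 or 3 (adjusted p = 0.051 to 0.11).

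Genes of fatty acid oxidation mostly had higher values after TAA. In this list 7 rose and 3 fell of 39 measured members, with a median change of 0.45, and 30 members had a positive change. Rises were 17.9% of the list against 2.13% of all genes, and falls 7.69% against 5.27%. The 4 largest were acot12, pdk2a, PDK2 and acot11a. The thioesterase gene acot11a had 6.80, 6.66 and 6.48 in the control libraries and 8.14, 8.15 and 8.374 in the TAA libraries. TAA minus control came to 1.57 ± 0.34 (SE, adjusted p = 0.00692). The pyruvate dehydrogenase kinases, which keep pyruvate out of the citric acid cycle, were lower. The values of pdk2a were 10.24, 9.16 and 9.71 in the control libraries and 8.348, 7.50 and 7.61 in the TAA libraries. The estimated change was -1.89 ± 0.32 (SE, adjusted p = 0.0014). PDK2 changed by -1.63 ± 0.42 (SE, adjusted p = 0.0213). Named after their values were seen, the mitochondrial enzymes ACADVL (0.99), acads (1.205), acaa2 (0.83) and HADHB (0.72) and the carnitine carrier SLC25A20 (0.75) were the other rises. The remaining fall was PPARA (-1.07), a nuclear receptor that drives this pathway. The count of rises depended on single libraries and was 2 without TAA replicate 1 and 3 without control replicate 2 or in the fit of the 6 HEP libraries. That of falls was 1 without TAA replicate 1 or 2 or control replicate 1. The call of PDK2 was lost without TAA replicate 1 or 2 or control replicate 1 (adjusted p = 0.0687 to 0.116).

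Among apolipoproteins and lipid carriers 4 rose and 1 fell of 26 measured members, with a median change of 0.56. The rises were 15.4% of the list against 2.13% of all genes. APOB, the structural protein of very low-density lipoprotein, had 12.23, 12.05 and 12.16 in the control libraries and 13.81, 13.21 and 13.28 in the TAA libraries. The change was 1.29 ± 0.33 (SE, adjusted p = 0.0199). It was the only one of 25 HEP markers that was called. Another apolipoprotein B gene among these markers, apobb.1, was not. The similarly named genes apoa4b.1 and apoa4b.2, copies of apolipoprotein A-IV, changed by 1.54 ± 0.32 (SE, adjusted p = 0.00595) and 2.38 ± 0.51 (SE, adjusted p = 0.00692). For apoc2, the activator of lipoprotein lipase, the change was 1.01 ± 0.23 (SE, adjusted p = 0.0117). Copies this alike can share reads, so the split between apoa4b.1 and apoa4b.2 is uncertain. The endothelial lipase gene lipg fell, with 3.58, 2.84 and 3.38 in the control libraries and 0.54, -0.13 and -0.46 in the TAA libraries. This was a change of -3.28 ± 0.83 (SE, adjusted p = 0.019). The number of rises was 2 without TAA replicate 1 or control replicate 3. The call of APOB was lost without TAA replicate 1 or control replicate 2 or 3 (adjusted p = 0.0501 to 0.0951). That of apoa4b.1 was lost in the fit of the 6 HEP libraries (adjusted p = 0.0501). For apoc2 this happened without TAA replicate 1 or control replicate 3 (adjusted p = 0.051 to 0.06). That of lipg was lost without TAA replicate 2 or 3 or control replicate 1 or 3 (adjusted p = 0.0518 to 0.0786).

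Falls outnumbered rises in glucose metabolism, where 1 rose and 6 fell of 31 measured members, with a median change of 0.16. The falls were 19.4% of the list against 5.27% of all genes, although the median was above 0. PCK1, the enzyme that commits carbon to new glucose, had 13.11, 11.997 and 11.17 in the control libraries and 8.42, 8.66 and 10.81 in the TAA libraries. TAA minus control was -2.80 ± 0.50 (SE, adjusted p = 0.00203). TAA replicate 3 was closest to the control libraries. The hexokinases of tissues other than liver, HK1 and hk2, changed by -2.71 ± 0.44 (SE, adjusted p = 0.00106) and -2.38 ± 0.52 (SE, adjusted p = 0.00736). PFKFB3, which makes an activator of glycolysis, changed by -2.37 ± 0.39 (SE, adjusted p = 0.00108). Named after their values were seen, LDHA (-1.96), lactate dehydrogenase, and g6pca.2 (-1.35), a copy of glucose-6-phosphatase, were also lower, and gcgrb (1.33), a glucagon receptor, was higher. The other copy g6pca.1 had 8.22, 7.25 and 6.74 in the control libraries and 7.63, 7.51 and 8.08 in the TAA libraries. The group means differed by 0.33 ± 0.36 (SE, adjusted p = 0.636). This did not pass. Glucokinase, gck, was close to the floor in all libraries, with 0.25, 0.01 and 1.60 in the control libraries and -0.94, -0.58 and -0.96 in the TAA libraries. Its change was -1.45 ± 1.54 (SE, adjusted p = 0.626). The glucose carriers slc2a3b and SLC2A1 fell as well, by 3.47 and 2.64 on the log2 scale.

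Among the solute carriers as a family, 4 rose and 29 fell of 307 measured members, with a median change of -0.20. The falls were 9.45% of the family, against 5.27% of all genes. The number of rises was 1 without TAA replicate 1 or control replicate 2, and 2 without TAA replicate 2 or 3. Of the 4 largest, slc2a3b had 5.22, 6.15 and 6.38 in the control libraries and 2.75, 1.88 and 2.71 in the TAA libraries. The fitted change was -3.47 ± 0.41 (SE, adjusted p = 6.62e-05). Next, slc3a2b, the heavy chain of amino acid exchangers, had 3.94, 5.39 and 6.22 in the control libraries and 2.37, 0.73 and 2.33 in the TAA libraries. That is a change of -3.37 ± 0.51 (SE, adjusted p = 0.000476). The sodium-calcium exchanger gene slc8a4b changed by -3.40 ± 0.45 (SE, adjusted p = 0.000173). SLC43A2 (ENSDARG00000036848), a carrier of large neutral amino acids, changed by -2.76 ± 0.44 (SE, adjusted p = 0.00092). The groups did not overlap in any of these 4. SLC2A1 and the remaining members were outside the naming rule. Amino acid breakdown had 3 rises and no fall among 28 members, and its median change was 0.22. Among these aspg, an asparaginase, had 6.39, 6.39 and 5.72 in the control libraries and 6.96, 7.37 and 8.11 in the TAA libraries. The means differed by 1.31 ± 0.33 (SE, adjusted p = 0.0188). The others were hao2, a hydroxyacid oxidase (1.14 ± 0.27 (SE, adjusted p = 0.0125)), and ftcd, an enzyme of histidine breakdown (0.91 ± 0.25 (SE, adjusted p = 0.032)). The call of aspg was lost without TAA replicate 3 or control replicate 3 (adjusted p = 0.0843 to 0.122). That of hao2 was lost without control replicate 2 (adjusted p = 0.0514). For ftcd this happened without TAA replicate 2 or 3 or control replicate 2 or 3, and in the fit with no variance trend, the fit of the 6 HEP libraries and the fit with the replicate number as a block (adjusted p = 0.0518 to 0.157).

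The cytochromes P450 were taken by name, so the list holds enzymes for foreign compounds and others such as cyp7a1 of bile acid synthesis. Of this family 3 rose and 2 fell of 69 measured members, with a median change of 0.34. Rises were 4.35% of the list against 2.13% of all genes and falls 2.9% against 5.27%, and 47 members had a positive change. Of the 5 called members, cyp2aa1 had 2.29, 3.85 and 3.01 in the control libraries and 4.96, 5.41 and 5.25 in the TAA libraries. The measured change was 2.16 ± 0.36 (SE, adjusted p = 0.00124). The values of cyp3c3 were 5.27, 4.58 and 3.53 in the control libraries and 0.04, 2.07 and 1.38 in the TAA libraries. On the log2 scale the change was -3.30 ± 0.70 (SE, adjusted p = 0.00667). Its relative cyp3c4 changed by -2.41 ± 0.66 (SE, adjusted p = 0.0309). The others were cyp2j20 (1.78 ± 0.45 (SE, adjusted p = 0.0202)) and cyp1d1 (1.40 ± 0.42 (SE, adjusted p = 0.0483)). All are close relatives of other P450 genes, so reads could be split between copies. The number of P450 rises was 6 in the fit of the 6 HEP libraries or with quantile normalization, and 1 without TAA replicate 2 or 3 or control replicate 1. Of the conjugation enzymes, 2 rose and 3 fell of 63 measured members, with a median change of 0.16. These shares, 3.17% and 4.76%, were near those of all genes. Among the glucuronosyltransferases, ugt5b5 rose and ugt5d1 had 3.57, 3.195 and 3.93 in the control libraries and 6.41, 5.46 and 5.81 in the TAA libraries. TAA minus control came to 2.33 ± 0.28 (SE, adjusted p = 6.62e-05). The related gene ugt5f1 changed by -2.02 ± 0.42 (SE, adjusted p = 0.00543). The sulfotransferases sult1st2 and sult1st3 changed by -1.77 ± 0.37 (SE, adjusted p = 0.00567) and -1.34 ± 0.33 (SE, adjusted p = 0.0177). The call of cyp2j20 was lost without TAA replicate 1, 2 or 3 or control replicate 1 or 2, and in the fit of the 6 HEP libraries (adjusted p = 0.0505 to 0.0871). That of cyp1d1 was lost without TAA replicate 1, 2 or 3 or control replicate 1, 2 or 3, and in the fit with no variance trend and the fit with the replicate number as a block (adjusted p = 0.0543 to 0.151). For cyp3c4 this happened without TAA replicate 1 or 3 or control replicate 1 or 2, and in the fit of the 6 HEP libraries (adjusted p = 0.0766 to 0.164). That of sult1st3 was lost without TAA replicate 1 or 2 or control replicate 1 (adjusted p = 0.0731 to 0.0805).

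Genes that are often read for a response to TAA or to foreign compounds did not pass. For cyp2y3, placed with mammalian CYP2E1, the values were 9.64, 8.83 and 8.61 in the control libraries and 9.39, 9.27 and 9.43 in the TAA libraries. The estimated change was 0.34 ± 0.31 (SE, adjusted p = 0.57). For cyp1a, the target of the aryl hydrocarbon receptor, they were 11.32, 10.37 and 10.32 in the control libraries and 11.07, 11.03 and 11.16 in the TAA libraries. The change was 0.42 ± 0.38 (SE, adjusted p = 0.559). For nqo1, a target of NRF2, they were 5.42, 5.16 and 4.96 in the control libraries and 5.005, 5.44 and 4.18 in the TAA libraries. This was a change of -0.30 ± 0.39 (SE, adjusted p = 0.691). The TAA and control values of these 3 genes overlapped. Of the antioxidant genes, 1 rose and 1 fell of 26 measured members, with a median change of -0.18. The rise was NFE2L2, which encodes NRF2 itself, with 9.14, 9.08 and 9.17 in the control libraries and 9.68, 9.69 and 9.77 in the TAA libraries. TAA minus control was 0.59 ± 0.16 (SE, adjusted p = 0.0273). The fall was HMOX1, heme oxygenase, with 6.60, 7.80 and 8.20 in the control libraries and 3.84, 5.27 and 5.19 in the TAA libraries. The group means differed by -2.77 ± 0.41 (SE, adjusted p = 0.000376). The call of NFE2L2 was lost without TAA replicate 1, 2 or 3 or control replicate 1, 2 or 3, and in the fit with no variance trend and the fit with the replicate number as a block (adjusted p = 0.0535 to 0.1).

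ER stress genes that passed the test all fell. Of the ER chaperones and the unfolded protein response, 0 rose and 8 fell of 40 measured members, with a median change of -0.62. A negative change was seen for 37 members, and the falls were 20% of the list against 5.27% of all genes. ATF3, a transcription factor of the stress response, had 8.33, 7.71 and 8.004 in the control libraries and 6.55, 4.998 and 6.02 in the TAA libraries. Its change was -2.16 ± 0.36 (SE, adjusted p = 0.00124). TRIB3, a pseudokinase induced by ATF4 and CHOP, had 8.07, 7.57 and 7.35 in the control libraries and 5.93, 6.17 and 5.36 in the TAA libraries. The fitted change was -1.84 ± 0.31 (SE, adjusted p = 0.00124). DDIT3, which encodes CHOP, had 8.52, 8.48 and 8.57 in the control libraries and 6.81, 7.28 and 7.02 in the TAA libraries. That is a change of -1.49 ± 0.20 (SE, adjusted p = 0.000189). The ER co-chaperone gene dnajb9b changed by -1.77 ± 0.46 (SE, adjusted p = 0.0225). Control and TAA libraries were apart in all 4. The other called members, named after their values were seen, were dnajc3a (-1.37), serp1 (-1.16), HSP90B1 (-0.96) and atf4b (-0.62). For hspa5, the main ER chaperone BiP, the values were 9.36, 10.02 and 9.76 in the control libraries and 9.06, 8.79 and 8.54 in the TAA libraries. The means differed by -0.92 ± 0.35 (SE, adjusted p = 0.129). They did not overlap, but the change did not pass, except in 1 alternative limma fit (adjusted p = 0.0444). The count was 4 without TAA replicate 2 or 3 and 5 without control replicate 1 or 2 or with no variance trend. The call of dnajb9b was lost without TAA replicate 2 or 3 or control replicate 1 or 2 (adjusted p = 0.0552 to 0.0925).

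**Figure D2:**
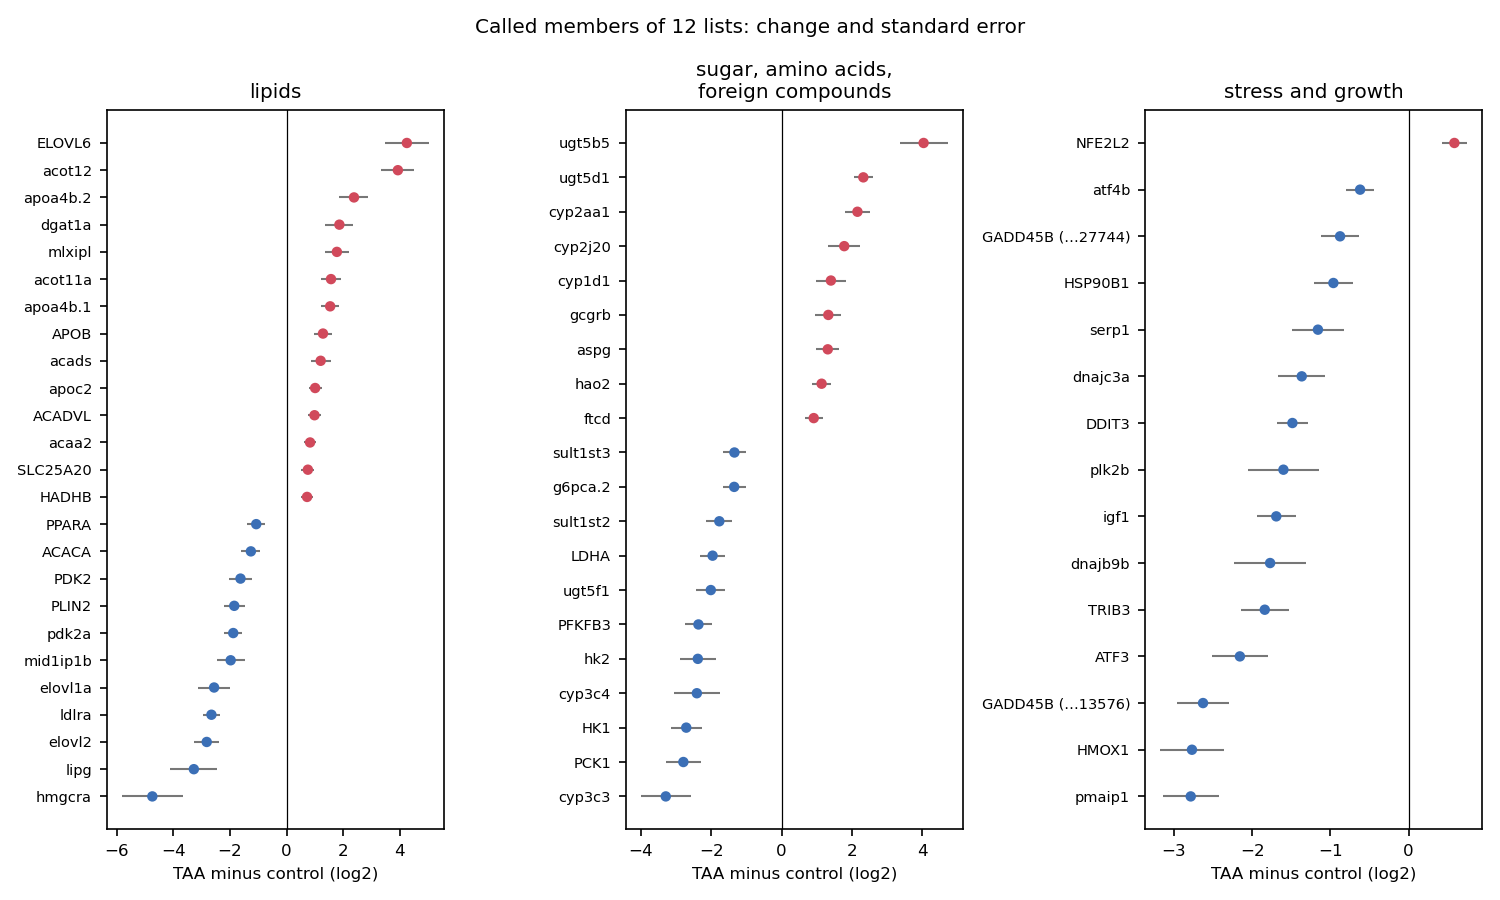
Change in dsRed-positive HEPs (TAA minus control, log2, x axis) of every called member of 12 lists in 3 panels, for lipids (left), glucose, amino acids and foreign compounds (middle) and stress and growth (right), with bars for the SE and red for rises and blue for falls. The lipid panel runs from ELOVL6 at 4.25 to hmgcra at -4.75, and in the stress and growth panel only NFE2L2 lies above 0.

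Among growth and injury genes igf1, the growth factor that HEPs secrete under growth hormone, had 9.17, 8.86 and 8.53 in the control libraries and 7.68, 6.73 and 7.06 in the TAA libraries. The measured change was -1.69 ± 0.25 (SE, adjusted p = 0.000354). It was the only call among 21 members of its list, a share of 4.76%, near the 5.27% of all genes that fell. There were 2 falls in 7 of the 13 alternatives, among them the fit of the 6 HEP libraries and median centring. The binding protein gene igfbp1b had 6.53, 6.62 and 5.70 in the control libraries and 5.70, 5.84 and 6.25 in the TAA libraries. On the log2 scale the change was -0.35 ± 0.45 (SE, adjusted p = 0.692). Of the list drawn up as p53 targets, 0 rose and 4 fell of 20 measured members, with a median change of -0.26. The falls were 20% of the list against 5.27% of all genes. Of these falls 2 are copies of GADD45B, whose place among p53 targets was not checked here. The death factor NOXA, pmaip1, had 6.57, 6.39 and 7.24 in the control libraries and 3.81, 4.22 and 3.81 in the TAA libraries. TAA minus control came to -2.79 ± 0.36 (SE, adjusted p = 0.000128). Of the growth arrest gene, GADD45B (ENSDARG00000013576) had 6.37, 6.23 and 6.44 in the control libraries and 3.69, 3.196 and 4.26 in the TAA libraries. The estimated change was -2.63 ± 0.33 (SE, adjusted p = 0.000112). The other copy, GADD45B (ENSDARG00000027744), changed by -0.88 ± 0.25 (SE, adjusted p = 0.0339). The last call was plk2b, a stress-induced kinase (-1.60 ± 0.45 (SE, adjusted p = 0.0355)). Of the cell cycle genes 1 rose and 0 fell of 40 measured members, with a median change of -0.46. The rise was CCND1, cyclin D1, with 8.06, 7.28 and 7.04 in the control libraries and 8.60, 8.28 and 7.94 in the TAA libraries. The change was 0.81 ± 0.24 (SE, adjusted p = 0.0453). The mitotic cyclin gene ccnb1 did not pass (-1.65 ± 0.55 (SE, adjusted p = 0.0766)). The call of GADD45B (ENSDARG00000027744) was lost without TAA replicate 1 or 2 or control replicate 1 or 3, and in libraries centred on their median, the fit with no variance trend, the fit of the 6 HEP libraries and quantile-normalised libraries (adjusted p = 0.0562 to 0.159). That of plk2b was lost without TAA replicate 3 or control replicate 2 or 3, and in the fit of the 6 HEP libraries and the fit with the replicate number as a block (adjusted p = 0.0617 to 0.187). For CCND1 this happened without TAA replicate 1 or 2 or control replicate 2 or 3, and in libraries centred on their median, the fit with no variance trend and the fit of the 6 HEP libraries (adjusted p = 0.0538 to 0.192).

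In the yolk and oestrogen list no member passed. All 14 members had a negative change, with a median of -0.84 and a lowest change of -3.14. In 8 of the 14 the TAA values lay wholly below the control values, while over all genes this held for 17.9%, a smaller share. Without control replicate 2, 2 members were called lower, and 1 was with the replicate block. Of its members vtg1, the vitellogenin with the highest values, had 21.87, 21.98 and 21.74 in the control libraries and 20.70, 21.61 and 20.42 in the TAA libraries. This was a change of -0.96 ± 1.06 (SE, adjusted p = 0.641). The 8 vitellogenins together made up 66.4, 66.8 and 65.2% of the summed level, with the log taken off, in the control libraries and 53.1, 64.1 and 43.9% in the TAA libraries. Every TAA library was lower than all control libraries, with TAA replicate 2 closest to them. The oestrogen receptor esr1 had 9.24, 9.50 and 9.88 in the control libraries and 8.74, 9.65 and 9.20 in the TAA libraries. TAA minus control was -0.35 ± 0.30 (SE, adjusted p = 0.549).

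The bile acid list had the highest median change of all lists, 0.87, with 14 of 15 members positive, but a single call. There was no call without TAA replicate 2 or control replicate 1, and there were 3 in the fit of the 6 HEP libraries. The call was fgfr4, the receptor through which FGF19 represses bile acid synthesis, with 7.60, 7.65 and 7.97 in the control libraries and 9.69, 9.12 and 8.371 in the TAA libraries. The group means differed by 1.32 ± 0.33 (SE, adjusted p = 0.0191). For cyp7a1, the rate-limiting enzyme of bile acid synthesis, the values were 8.445, 9.02 and 8.06 in the control libraries and 8.32, 10.07 and 10.29 in the TAA libraries. Its change was 1.05 ± 0.48 (SE, adjusted p = 0.202). TAA replicate 1 lay among the control values, and the change passed only in 1 alternative limma fit (adjusted p = 0.038). The ligand gene fgf19 had 5.84, 4.55 and 1.74 in the control libraries and 6.29, 5.09 and 6.55 in the TAA libraries. The fitted change was 1.93 ± 0.997 (SE, adjusted p = 0.27). Among the HEP transcription factors 3 rose and 0 fell of 24 measured members, with a median change of 0.37. The rises were 12.5% of the list against 2.13% of all genes. Without TAA replicate 2 there was 1 rise, without TAA replicate 3 there were 2 falls, and in the fit of the 6 HEP libraries there were 5 rises. They were nr1d4a, a member of the REV-ERB family of clock repressors (2.28 ± 0.50 (SE, adjusted p = 0.00806)), hnf1ba, a homeodomain factor of liver and bile ducts (1.14 ± 0.31 (SE, adjusted p = 0.0282)), and NR1H3, the oxysterol receptor LXR alpha, with 8.57, 8.39 and 8.15 in the control libraries and 8.98, 9.29 and 9.16 in the TAA libraries. That is a change of 0.77 ± 0.17 (SE, adjusted p = 0.00926). ppargc1a, a coactivator of gluconeogenesis and mitochondrial genes, did not pass (-0.53 ± 0.28 (SE, adjusted p = 0.278)). The call of fgfr4 was lost without TAA replicate 1 or 2 or control replicate 1 or 2 (adjusted p = 0.057 to 0.114). That of hnf1ba was lost without TAA replicate 2 or 3 or control replicate 1 or 2, and in the fit with no variance trend (adjusted p = 0.052 to 0.13). For NR1H3 this happened without TAA replicate 2 (adjusted p = 0.0505).

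HEPs also supply defence and clotting proteins to plasma. In these lists the share of falls lay near that of all genes, 5.27%, at 3.57% for coagulation, 4% for acute phase and 8.33% for complement genes. Of the coagulation factors 0 rose and 1 fell of 28 measured members, with a median change of 0.24. The fall was f3a, tissue factor (-1.73 ± 0.40 (SE, adjusted p = 0.0113)). In the acute phase list 0 rose and 1 fell of 25 measured members, with a median change of -0.01, and the fall was socs3a, the feedback inhibitor of cytokine signalling, with 9.07, 8.72 and 8.88 in the control libraries and 7.52, 7.002 and 7.09 in the TAA libraries. The means differed by -1.68 ± 0.39 (SE, adjusted p = 0.0118). Of the complement genes 0 rose and 3 fell of 36 measured members, with a median change of 0.39. There were 5 falls without control replicate 1, and 3 rises in the fit of the 6 HEP libraries. The terminal component c7b had 10.41, 9.97 and 8.38 in the control libraries and 6.09, 5.88 and 6.04 in the TAA libraries. The measured change was -3.58 ± 0.58 (SE, adjusted p = 0.00102). The other calls, c1qc (-1.77 ± 0.37 (SE, adjusted p = 0.00535)) and c1qb (-1.68 ± 0.42 (SE, adjusted p = 0.0186)), are macrophage products and belong also to the leukocyte list. Of 31 collagens, 2 (6.45%) fell and none rose, with 4 falls without control replicate 1 and 1 without TAA replicate 2 or control replicate 2. When a mean of 3 or higher was required, no collagen fall was left. The 2 falls of the main fit included col28a2b (-1.16 ± 0.33 (SE, adjusted p = 0.0362)). This gene was near the floor in both groups, with means of -0.32 in the control libraries and -1.48 in the TAA libraries. The other was col12a1b, with 4.83, 2.75 and 2.62 in the control libraries and 0.06, -0.24 and 0.98 in the TAA libraries. On the log2 scale the change was -3.14 ± 0.52 (SE, adjusted p = 0.00108). Of 34 other matrix genes, mxra5a rose (2.02 ± 0.60 (SE, adjusted p = 0.0478)). TIMP2 (ENSDARG00000075261), a protease inhibitor, fell (-2.26 ± 0.45 (SE, adjusted p = 0.00425)), as did adamts5, an aggrecanase (-1.75 ± 0.47 (SE, adjusted p = 0.0261)). These falls were 5.88% of that list. With a mean of 3 or higher required, none of these matrix genes was called. The call of f3a was lost without TAA replicate 3 or control replicate 2, and in the fit of the 6 HEP libraries (adjusted p = 0.06 to 0.0912). That of socs3a was lost without TAA replicate 2 (adjusted p = 0.0505). For c1qb this happened without TAA replicate 1 or 3 or control replicate 3, and in the fit of the 6 HEP libraries (adjusted p = 0.0537 to 0.0983). That of col28a2b was lost without TAA replicate 1, 2 or 3 or control replicate 2, and in the fit with no variance trend, the fit of the 6 HEP libraries and quantile-normalised libraries (adjusted p = 0.0677 to 0.166). For mxra5a this happened without TAA replicate 1, 2 or 3 or control replicate 1 or 3, and in the fit with the replicate number as a block (adjusted p = 0.0682 to 0.157). That of adamts5 was lost without TAA replicate 2 or 3 or control replicate 2 or 3, and in the fit of the 6 HEP libraries (adjusted p = 0.0584 to 0.111).

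**Figure D3:**
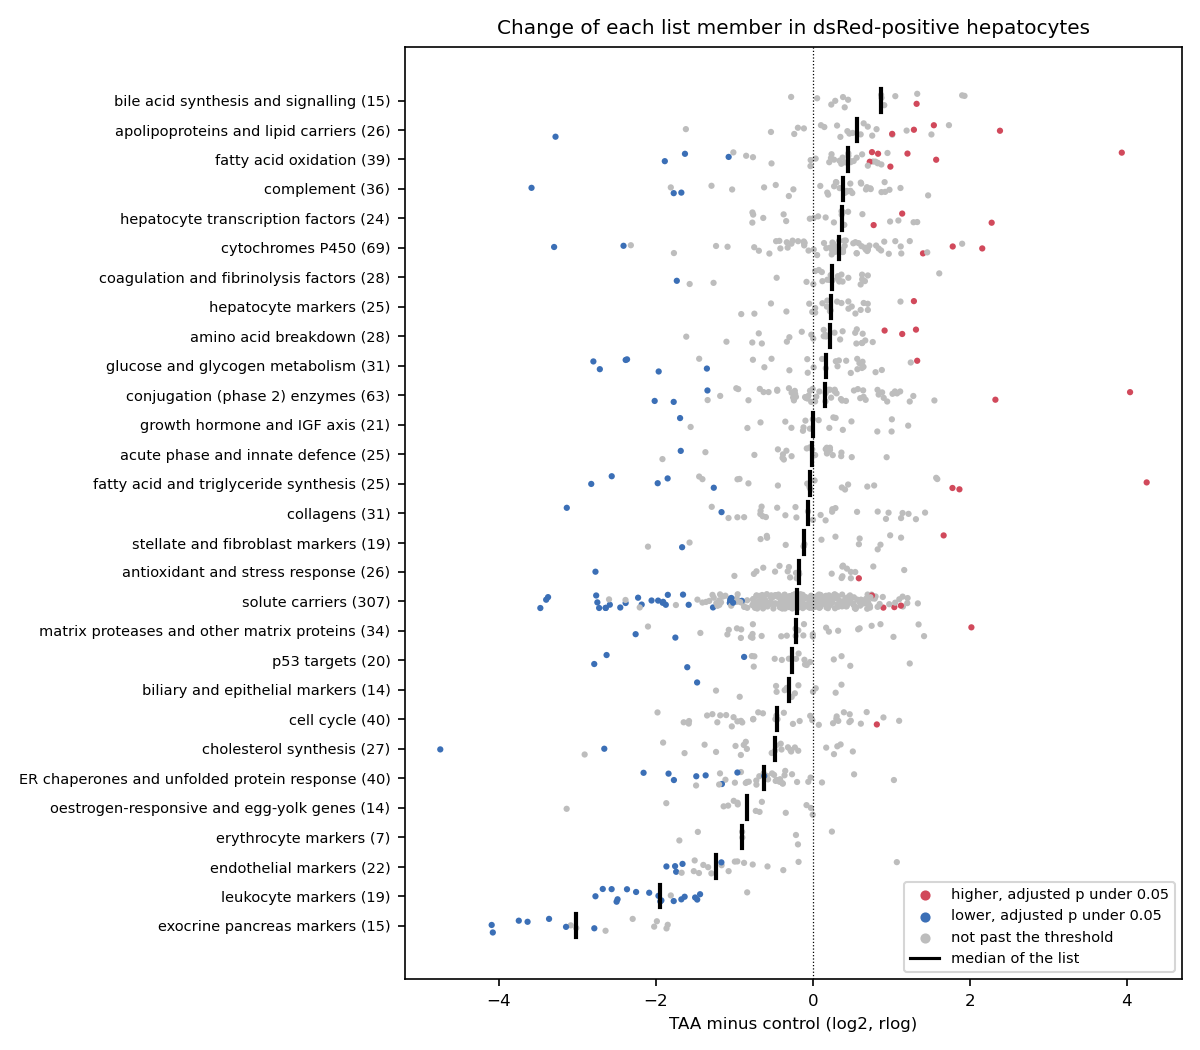
Change in dsRed-positive HEPs (TAA minus control, log2, x axis) of each member of the 29 lists, ordered by the median of the list (black tick), with called rises in red, called falls in blue and other members in grey and the number of members in parentheses. The medians run from 0.87 for bile acid genes down to -1.94 for leukocyte markers and -3.01 for exocrine pancreas markers, against -0.02 for all genes.

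Of the 29 lists, leukocyte markers had the largest share of falls. Of 19 markers, 17 (89.5%) fell and none rose, against 5.27% of all genes that fell. The other 2, marco (-0.84 ± 0.46 (SE, adjusted p = 0.298)) and c1qa (-1.81 ± 0.55 (SE, adjusted p = 0.0528)), also had negative changes. The median change was -1.94. Their mean level was 6.11, 6.82 and 7.29 in the control libraries and 4.58, 4.96 and 4.73 in the TAA libraries, and the summed level of the list ranged from 11.52 to 12.69 and from 9.54 to 10.08 on the log2 scale. No marker was at the floor in either group, and the level in the dsRed-negative control libraries was 5.64 to 6.43, so these transcripts were present among dsRed-positive cells of control fish. Among the 4 largest falls, cd74a, the invariant chain of antigen presentation, had 10.11, 10.73 and 11.21 in the control libraries and 7.72, 8.353 and 7.67 in the TAA libraries. TAA minus control came to -2.77 ± 0.33 (SE, adjusted p = 6.62e-05). Its copy cd74b changed by -2.68 ± 0.39 (SE, adjusted p = 0.000327). A receptor chain for interleukin 10, il10ra, had 5.78, 6.15 and 6.91 in the control libraries and 3.39, 4.34 and 3.60 in the TAA libraries. The estimated change was -2.50 ± 0.40 (SE, adjusted p = 0.000783). The Fc receptor subunit gene fcer1g changed by -2.56 ± 0.62 (SE, adjusted p = 0.0152). The groups did not overlap in these genes. The common leukocyte antigen ptprc (-1.63) and the macrophage receptor csf1ra (-2.49), named after their values were seen, fell with them. In bulk libraries fewer cells of a type and less RNA per cell cannot be told apart. The call of fcer1g was lost without TAA replicate 1 or 3 or control replicate 3 (adjusted p = 0.0629 to 0.0657).

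Further lists were written down after the values had been seen, so their counts too are a description and add no support. Of 8 genes of major histocompatibility complex class II and its chaperone, 5 (62.5%) fell and all were negative, with a median of -2.53. Both cd74a and cd74b are in this list and in the leukocyte list. The class II alpha chain gene mhc2daa had 7.06, 7.61 and 7.74 in the control libraries and 5.01, 4.66 and 4.82 in the TAA libraries. The change was -2.64 ± 0.45 (SE, adjusted p = 0.0013). Of 52 chemokines and their receptors, 10 (19.2%) fell and 1 rose. The falls were 4 without TAA replicate 1 and 5 without TAA replicate 3. The receptor of Cxcl12, cxcr4b, had 7.33, 7.12 and 7.93 in the control libraries and 4.50, 4.77 and 4.89 in the TAA libraries. This was a change of -2.74 ± 0.37 (SE, adjusted p = 0.000173). For the ligand ccl35.1 the values were 6.22, 6.26 and 6.25 in the control libraries and 3.53, 2.56 and 2.42 in the TAA libraries. TAA minus control was -3.41 ± 0.38 (SE, adjusted p = 4e-05). The rise was ccl39.2, with 4.86, 4.53 and 4.86 in the control libraries and 6.09, 6.03 and 6.38 in the TAA libraries. The group means differed by 1.42 ± 0.29 (SE, adjusted p = 0.00489). The fall of the leukocyte list was measured beside the falls of HMOX1, HK1, hk2, PFKFB3, slc2a3b, slc3a2b, c1qb and c1qc given above, and its part in them was not tested.

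Some markers of other cell types fell as well. All 15 exocrine pancreas markers were negative, with a median of -3.01, and 7 (46.7%) fell, against 5.27% of all genes. Their mean level was 6.01, 2.65 and 4.57 in the control libraries and 1.14, 2.32 and 1.06 in the TAA libraries, so control replicate 2 was close to TAA replicate 2. The protease gene ela2l had 7.16, 3.85 and 5.99 in the control libraries and 1.102, 3.36 and 0.26 in the TAA libraries. Its change was -4.09 ± 0.98 (SE, adjusted p = 0.0142). CPB1, another protease, had 7.52, 4.21 and 6.47 in the control libraries and 1.58, 3.83 and 0.55 in the TAA libraries. The fitted change was -4.08 ± 0.87 (SE, adjusted p = 0.00654). CPA1 (ENSDARG00000021339) and ela2 changed by -3.75 ± 0.94 (SE, adjusted p = 0.0188) and -3.63 ± 0.86 (SE, adjusted p = 0.0133). A chymotrypsinogen outside the marker list, ctrb.3, had 6.20, 3.88 and 4.75 in the control libraries and 0.78, 0.83 and 0.36 in the TAA libraries. That is a change of -4.28 ± 0.86 (SE, adjusted p = 0.0044). The number of falls was 2 without TAA replicate 1 or 3 or control replicate 1, 4 without control replicate 3 and 12 without control replicate 2. The call of ela2l was lost without TAA replicate 1 or 3 or control replicate 1 (adjusted p = 0.0596 to 0.0821). That of CPA1 (ENSDARG00000021339) was lost without TAA replicate 1 or 3 or control replicate 1 or 3, and in the fit of the 6 HEP libraries (adjusted p = 0.0605 to 0.109). For ela2 this happened without TAA replicate 1 or 3 or control replicate 1, and in the fit of the 6 HEP libraries (adjusted p = 0.0509 to 0.073).

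Of 22 endothelial markers, 21 were negative and 5 (22.7%, against 5.27% of all genes) fell, with a median of -1.23. The mean level of the list was 2.44, 2.595 and 2.87 in the control and 1.87, 1.55 and 1.19 in the TAA libraries. Of the called members stab1, a scavenger receptor of sinusoids, had 4.50, 4.98 and 5.25 in the control libraries and 3.53, 3.21 and 2.75 in the TAA libraries. The means differed by -1.74 ± 0.41 (SE, adjusted p = 0.0125). The transcription factor gene etv2 changed by -1.87 ± 0.40 (SE, adjusted p = 0.00692), and flt4, a receptor for VEGF-C, by -1.76 ± 0.52 (SE, adjusted p = 0.0474). E-selectin, sele, and the tight junction protein cldn5b changed by -1.66 ± 0.43 (SE, adjusted p = 0.0229) and -1.17 ± 0.35 (SE, adjusted p = 0.0491). Both etv2 and cldn5b were near the floor, with means of 1.31 and 0.46 in the control libraries and -0.55 and -0.70 in the TAA libraries. The count of endothelial falls was 1 without TAA replicate 3 or control replicate 3 and 2 without TAA replicate 2. It was 3 without control replicate 1 or with a mean value of at least 3. The mean level of the stellate and fibroblast list was 1.72, 1.89 and 2.07 in the control libraries and 2.096, 1.95 and 1.504 in the TAA libraries, so the groups overlapped. In it hand2, a transcription factor of HSCs, rose from the floor, with -0.14, -0.29 and -0.27 in the control libraries and 1.70, 1.78 and 0.82 in the TAA libraries. The measured change was 1.67 ± 0.39 (SE, adjusted p = 0.0113). TAGLN (ENSDARG00000033466), a smooth muscle protein, fell (-1.67 ± 0.42 (SE, adjusted p = 0.0193)). The biliary and epithelial list had a single call, zgc:77517 (-1.47 ± 0.36 (SE, adjusted p = 0.015)), and none of the 7 erythrocyte markers passed. The call of flt4 was lost without TAA replicate 2 or 3 or control replicate 2 or 3, and in the fit with no variance trend, the fit of the 6 HEP libraries and the fit with the replicate number as a block (adjusted p = 0.052 to 0.2). That of stab1 was lost without TAA replicate 3 or control replicate 3 (adjusted p = 0.0518 to 0.0667). For sele this happened without TAA replicate 2 or 3 or control replicate 1 or 3, and in the fit of the 6 HEP libraries (adjusted p = 0.0528 to 0.0945). That of cldn5b was lost without TAA replicate 1, 2 or 3 or control replicate 1 or 3, and in libraries centred on their median, the fit of the 6 HEP libraries, quantile-normalised libraries and the fit with the replicate number as a block (adjusted p = 0.0519 to 0.173). For TAGLN (ENSDARG00000033466) this happened without TAA replicate 3 or control replicate 1 or 3, and in the fit of the 6 HEP libraries (adjusted p = 0.0602 to 0.121). That of hand2 was lost without TAA replicate 1 or 2 (adjusted p = 0.054 to 0.0553). For zgc:77517 this happened without TAA replicate 1 or control replicate 3 (adjusted p = 0.0597 to 0.0749).

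**Figure D4:**
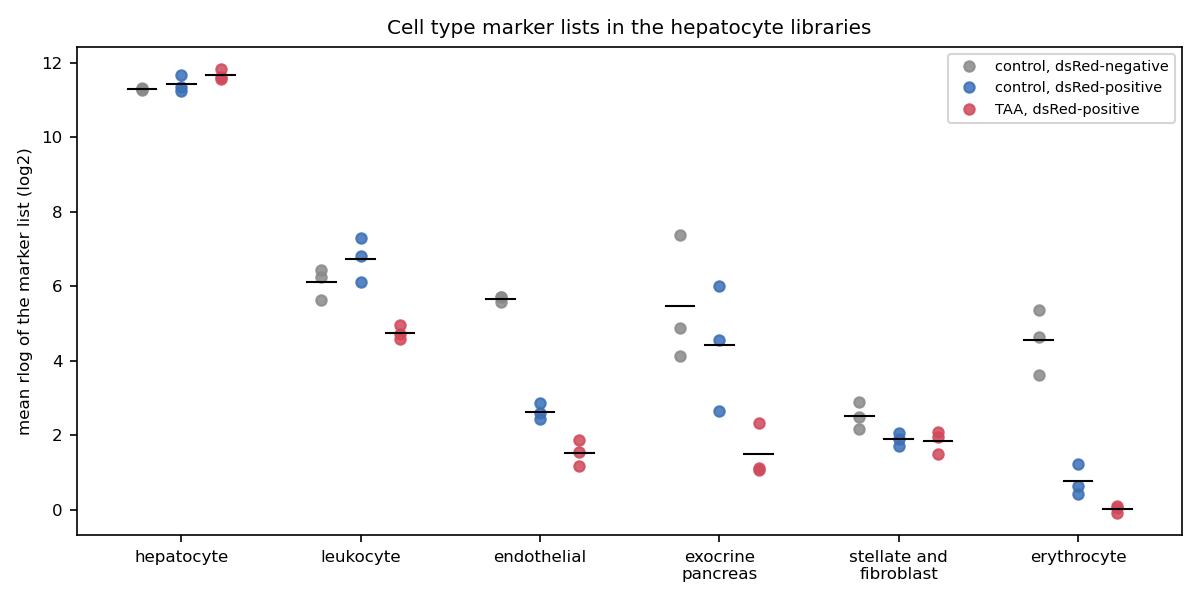
Mean rlog value (log2, y axis) of 6 cell type marker lists in each library of the Tg(fabp10a:dsRed) line, with dsRed-negative control in grey, dsRed-positive control in blue, dsRed-positive TAA in red and black lines for the group means. The HEP list is alike in the 3 groups, the leukocyte list lies between 6.11 and 7.29 in control and between 4.58 and 4.96 in TAA dsRed-positive cells, and the pancreas list is widely spread among control libraries.

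Immediate-early genes, which are switched on within minutes by growth factors and stress, fell where they passed the test. This list too was written down after the values had been seen. Of 32 members, 17 (53.1%, against 5.27% of all genes) fell and none rose, 30 had a negative change, and the median was -1.44. The mean level was 7.05, 7.29 and 7.36 in the control libraries and 5.82, 5.71 and 5.78 in the TAA libraries. The orphan receptor NR4A1 had 8.97, 9.13 and 9.43 in the control libraries and 5.80, 6.23 and 5.69 in the TAA libraries. On the log2 scale the change was -3.27 ± 0.28 (SE, adjusted p = 4.39e-06). Its relatives NR4A2 and NR4A3 changed by -3.73 ± 0.55 (SE, adjusted p = 0.000403) and -3.23 ± 0.39 (SE, adjusted p = 6.76e-05). EGR3, a zinc-finger factor, had 5.65, 6.72 and 5.98 in the control libraries and 3.03, 3.75 and 3.28 in the TAA libraries. TAA minus control came to -2.77 ± 0.35 (SE, adjusted p = 0.000113). The phosphatase gene DUSP2 had 7.60, 7.81 and 7.67 in the control libraries and 5.11, 5.78 and 4.79 in the TAA libraries. The estimated change was -2.46 ± 0.48 (SE, adjusted p = 0.00395). The groups did not overlap in any of these genes. Of the best known members, egr1 had 12.12, 12.97 and 12.72 in the control libraries and 12.08, 12.06 and 12.23 in the TAA libraries. The change was -0.48 ± 0.37 (SE, adjusted p = 0.493). FOS had 12.07, 11.91 and 12.01 in the control libraries and 11.34, 10.99 and 11.53 in the TAA libraries. This was a change of -0.71 ± 0.26 (SE, adjusted p = 0.114). ATF3 belongs to this list as well as to the ER stress list.

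Before the other cell types are set beside HEPs, their markers limit the comparison. The HEP markers were as high in HSC libraries as in HEP libraries, at 10.57 to 11.58 in control and 11.49 to 11.54 in TAA libraries. In EC libraries they rose from 7.37 to 8.51 in control to 12.12 to 12.69 in TAA libraries, while the endothelial list dropped from 8.19 to 8.43 to 0.67 to 1.06. The EC TAA libraries thus go against their label, and since this holds for all 3 of them, no comparison with ECs can be given without them. No library is shared between the responses of the cell types.

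The responses of HEPs and HSCs differed in 525 genes (2.86% of all genes), by the interaction term of the fit, lower in HEPs in 395 (2.15%) and higher in 130 (0.709%). The latter count was 67 without HEP TAA replicate 2. In HSCs TAA itself changed 1505 genes (8.21%). Of the 966 genes that fell in HEPs, 224 (23.2%) fell in HSCs, where 3.94% of all genes fell, and these were 31% of the 723 falls of HSCs. Of the 391 that rose in HEPs, 52 (13.3%) rose in HSCs, where 4.26% of all genes rose, and these were 6.65% of the 782 rises of HSCs. Of the 19 leukocyte markers, 15 fell in HSCs too, and no interaction was called. Many immediate-early genes went the other way in HSCs. There 18 of 32 rose and 1 fell, and the response of 24 differed from that in HEPs, each lower in HEPs. EGR3 changed by -2.77 in HEPs and 2.88 in HSCs (interaction, adjusted p = 3.72e-06). DUSP2 changed by -2.46 and 3.30 (adjusted p = 6.09e-05), and FOSB by -1.20 and 1.66 (adjusted p = 4.55e-05). Not all did so. NR4A1 and NR4A2 changed by -0.61 (adjusted p = 0.183) and -0.38 (adjusted p = 0.701) in HSCs, less than in HEPs by the interaction term (adjusted p = 0.000575 and 0.0218). DUSP6, a phosphatase of ERK, fell in both, by 2.08 in HEPs and 2.49 in HSCs on the log2 scale. The examples in this paragraph were chosen after their values were seen. Collagens differed as well, 14 of 31 rose in HSCs and none in HEPs, and the difference was called for 6.

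**Figure D5:**
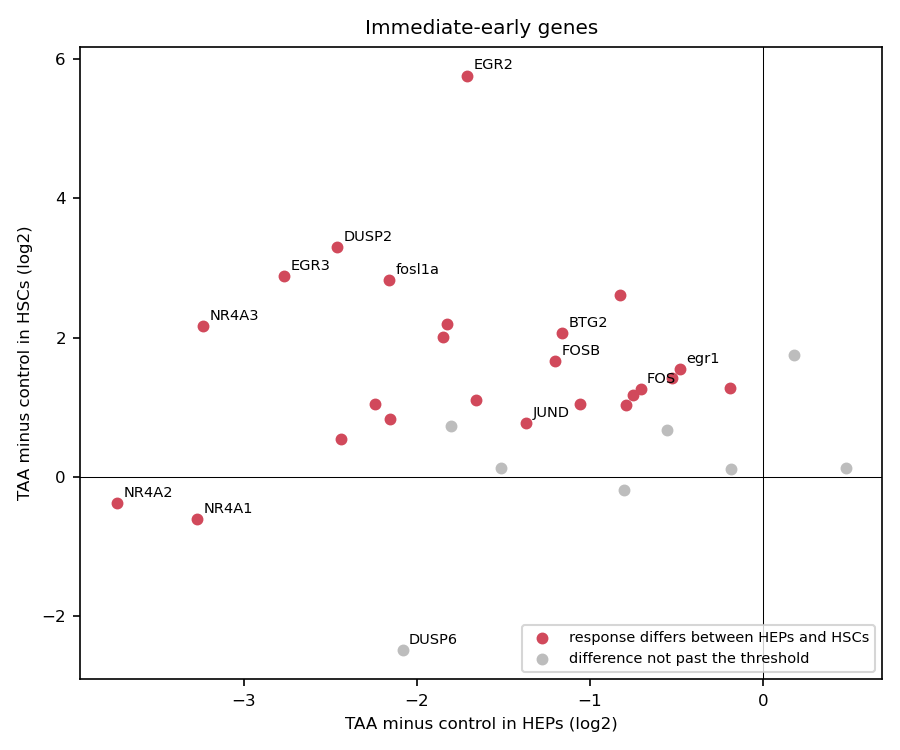
Change after TAA (log2) of 32 immediate-early genes in HEPs (x axis) and in HSCs (y axis), 1 point per gene, with red where the responses differed by the interaction term and grey where the difference did not pass. 24 genes are red, and most points lie to the left of 0 in HEPs and above 0 in HSCs.

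Between HEPs and ECs the responses differed in 7492 genes (40.9% of all genes), with a lower change in HEPs in 2927 (16%) and a higher one in 4565 (24.9%). This split turned to 4237 lower and 2812 higher when libraries were centred on their median. Of the 966 genes that fell in HEPs, 626 (64.8%) also fell in ECs, where 31.5% of all genes fell, and these were 10.8% of the 5776 falls of ECs. Another 145 (15%) rose there, where 19.7% of all genes rose. Of the 391 that rose in HEPs, 160 (40.9%) rose in ECs, which was 4.43% of the 3611 rises there.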

How the data were processed

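RNA was sequenced by the authors from 100000 sorted cells per library with a SMARTer low input kit, in 9 groups of 3. Per the labels and the paper, reads were checked with FastQC 0.11.8, trimmed with cutadapt 1.18, freed of ribosomal reads, aligned to GRCz11 with STAR 2.6 and handled with SAMtools 1.9, and DESeq2 was used. The counting tool, the annotation release and the filter that left 18336 genes are not given in the sources used here. The deposited values are log2 values of the rlog type, from -2.62 to 22.57. They are not counts, the depth of the libraries is unknown here, and the SE measures precision.

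Values were used unfiltered with R 4.3.3, limma 3.58.1, Python, pandas, numpy and matplotlib. limma (lmFit on group means, contrasts.fit, eBayes with trend=TRUE) was fitted to the 18 reporter-positive libraries, and the responses of the cell types were compared by interaction terms in the same fit. For dsRed-positive against dsRed-negative control cells, the 18 control libraries were fitted together. For this comparison a fit of the compared libraries only was not run. Benjamini-Hochberg adjustment covered the whole table, and the threshold was 0.05. Same-numbered dsRed-positive and dsRed-negative control libraries correlated in their deviations from the group means (0.114 to 0.157 over genes). The numbers may therefore pair them, which the labels do not say. Libraries of different number were not compared in this way, and the blocked count is given beside the other. The exact permutation test of single genes cannot go below 0.10 for 3 against 3 and is not printed. The script was tested on simulated data.

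Symbols come from the study for 1072 genes and from the reference table for 16172, and 1092 genes have no name. The rule for named genes took the 12 largest called rises and falls without overlap, every called member of a list with at most 6 of them and otherwise the 4 largest, and 15 genes always printed. The members and lists, 7 of markers and 22 of pathways, were chosen with earlier results of these data known, and 3 further lists after their values were seen. Alternatives were a fit of the compared libraries only, no variance trend, robust variances, a mean value of at least 3, median centring, quantile normalization, a log2 difference of at least 1, the replicate number as a block, and leaving out each library. Sequences and coordinates are not used here.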

Additional observations from a re-analysis of the deposited data

Results flagged for a closer look

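Some named genes changed in opposite directions in HEPs and in another cell type, each change being called and the interaction term being called too. The value given is the change in HEPs minus the change in the other cell type on the log2 scale.

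Against HSCs the difference was -5.94 for cyp3c3, -4.57 for elovl1a, -4.47 for pdk2a, -3.53 for f3a, -4.83 for GADD45B (ENSDARG00000013576) and -6.81 for col12a1b, which fell in HEPs and rose in HSCs. For the genes that rose in HEPs and fell in HSCs it was 7.44 for FAT3, 6.78 for ugt5b5, 3.397 for ugt5d1 and 1.61 for CCND1. The interaction had an adjusted p of 9e-06 to 0.0106 for these 10 genes, and it was called for all of them with libraries centred on their median.

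Against ECs the difference was -8.00 for hmgcra, -7.03 for Metazoa_SRP (ENSDARG00000112225), -4.73 for U3, -8.80 for cyp3c3, -4.69 for cyp3c4, -2.68 for sult1st2, -4.96 for sult1st3, -5.25 for ATF3, -5.93 for ldlra, -6.29 for elovl2, -3.21 for mid1ip1b, -5.28 for pdk2a, -6.27 for PCK1, -8.62 for c7b and -4.98 for igf1, all of which fell in HEPs and rose in ECs, with an adjusted p of 7.52e-09 to 0.00106. CCND1 rose in HEPs and fell in ECs, a difference of 1.42, but with libraries centred on their median its change in ECs was -0.03 and the interaction was no longer called (adjusted p = 0.0684). The HEP marker list rose from 7.96 ± 0.57 to 12.39 ± 0.29 (SD, n = 3) in the EC libraries, and its part in these differences was not tested.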

How the results depend on the processing

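Of the 95 named genes past the threshold in HEPs, 50 stayed past it in every alternative that could be fitted, 71 in every one that kept all libraries, and none changed direction. The 42 genes lost without a library are given with it beside their values. Conversely, fasn, hspa5 and cyp7a1 did not pass but did so in 1 alternative each. Of the genes that did not pass, g6pca.1 ranged from -0.00053 to 0.739 and nqo1 from -0.587 to 0.043 when a library was left out, the former without control replicate 3 and the latter without TAA replicate 3 being of the other sign. The count of changed genes in HEPs, 1357, lay between 1013 and 1432 in the alternatives that kept all libraries, and between 770 and 1146 when a library was left out. It was 1164 with a log2 difference of at least 1. These counts do not stand for the same genes throughout. The fit of the compared libraries only kept 800 of the 1357 calls (59%), while robust variances kept 97.2%. When a library was left out, the share of the 1357 calls that was kept lay between 53.9%, without TAA replicate 1, and 67.7%, without control replicate 2. The total counts of differing responses stayed within 1.5 times their value, from 6645 to 7373 against ECs and from 375 to 493 against HSCs when a HEP library was left out, although the 130 genes with a higher response in HEPs than in HSCs became 67 without TAA replicate 2.

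In the fit of all 18 control libraries, the dsRed-positive and dsRed-negative control libraries of HEPs differed in 98 genes, 97 of them lower in dsRed-positive cells. A fit of the compared libraries only was not run here. In alternatives chosen after the data were seen, the count was 109 with no variance trend and 6 with a mean value of at least 3. It was 26 with the replicate block and between 0 and 33 when a library was left out. At an unadjusted p under 0.05 in limma with all libraries kept there were 1874 genes.

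Same-numbered TAA and control libraries did not deviate together (correlations of -0.043 to 0.0053 over genes), so the numbers were not taken to pair them. With the number as a replicate block, 1199 genes were called in HEPs, 7189 differed from ECs and 417 from HSCs. rlog values carry no depth, so what depth limits cannot be said beyond the SE, and genes near 0 have understated changes.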
